A study of Mus musculus with 6 samples.

Results

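The genes described here mark the surface ectoderm and the junctions of simple epithelia: the keratin genes Krt8, Krt18 and Krt19, the desmosome gene Dsp, the adherens junction gene Cdh1, the claudin genes Cldn6 and Cldn7, the adhesion gene Epcam and the grainyhead transcription factor genes Grhl2 and Grhl3. They were taken as every probe set (a set of oligonucleotides on the array read out as 1 transcript signal) whose platform annotation named exactly 1 gene symbol, that symbol being among these 10. This gave 18 of 45037 probe sets, for 10 of 18193 named genes. The samples were mouse embryos of embryonic day 8.5, comprising 3 wild types and 3 Tcof1+/- littermates, and each was hybridised separately to an Affymetrix mouse whole-genome array. Tcof1 encodes treacle, a nucleolar protein of ribosomal RNA synthesis whose human counterpart is mutated in Treacher Collins syndrome. The sources used here do not give the altered allele, the strain, the sex of the embryos or whether membranes such as the yolk sac were dissected away.

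At this stage the surface ectoderm is a simple epithelium that covers the embryo and borders the closing neural folds. Its cells carry keratin filaments of type II (Krt8) paired with type I (Krt18, Krt19), anchored at desmosomes through desmoplakin (Dsp), and are joined by E-cadherin (Cdh1) and sealed by claudins. Grainyhead factors activate such junction genes, and Grhl2 and Grhl3 are both needed for closure of the neural tube. These genes are not private to ectoderm: gut endoderm expresses many of them, and Krt8, Krt18, Krt19, Cdh1, Epcam, Cldn6 and Dsp are also known from the visceral endoderm that lines the yolk sac. No such statement is made here for Grhl2, Grhl3 and Cldn7. In whole embryos, fewer epithelial cells and less RNA per epithelial cell cannot be told apart.

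The deposited signals were linear, in arbitrary units, with array medians from 21.0 to 25.6 and array-to-array correlations on the log2 scale from 0.964 to 0.974. Arrays were scanned on 2 days, replicates 1 and 2 of both genotypes on the first and replicate 3 of both on the second. Control probe sets for bacterial transcripts that were not spiked in reached at most 8.55 to 13.5 per array, which served as the background level. With 3 arrays per genotype, the number of arrays limits how precisely any difference is known. The transcript of Tcof1 was lower in the heterozygotes on its brightest probe set. It was at 387 ± 5.89 (SD, n = 3) in wild types and 211 ± 27.7 (SD, n = 3) in heterozygotes (log2 difference -0.88, SE 0.12, limma adjusted p = 0.0352). That call depended on the intensity trend of the fit described below, without which 0 probe sets of the array passed (smallest limma adjusted p = 0.0555).

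Upstream sequences of 7 of the 10 genes, with 8 annotated starts, were matched in RefSeq (build GRCm38.p6), each as the 250 bases before the start. Those of Epcam, Krt8 and Krt18 are shown, Epcam because it held the core of the grainyhead motif and the keratins because they are neighbouring genes whose signals shared the same highest and lowest embryo. Capitals mark ACCGGT, the core of the grainyhead motif AACCGGTT, and CACCTG or its reverse complement CAGGTG, the E-box bound by the Zeb and Snail repressors of epithelial genes. All 3 are given 5′ to 3′.
Epcam, chr17:87635729-87635978, plus strand: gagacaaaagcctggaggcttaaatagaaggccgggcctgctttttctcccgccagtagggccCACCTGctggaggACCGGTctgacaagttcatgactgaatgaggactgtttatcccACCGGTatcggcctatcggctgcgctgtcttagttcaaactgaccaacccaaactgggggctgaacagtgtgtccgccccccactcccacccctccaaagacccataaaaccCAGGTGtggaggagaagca
Krt8, chr15:102004343-102004592, minus strand: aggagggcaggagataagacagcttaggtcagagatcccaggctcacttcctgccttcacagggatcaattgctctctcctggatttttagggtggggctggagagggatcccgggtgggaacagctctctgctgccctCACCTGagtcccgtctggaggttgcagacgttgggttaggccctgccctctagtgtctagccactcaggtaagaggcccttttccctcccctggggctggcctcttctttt
Krt18, chr15:102027966-102028215, plus strand: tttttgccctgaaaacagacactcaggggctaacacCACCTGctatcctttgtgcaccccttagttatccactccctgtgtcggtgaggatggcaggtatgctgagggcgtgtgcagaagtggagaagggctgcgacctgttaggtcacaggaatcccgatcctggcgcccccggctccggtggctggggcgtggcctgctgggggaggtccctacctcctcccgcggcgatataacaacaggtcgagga

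The sequence of Epcam held ACCGGT at 174 and 131 bases before the start, and no other member sequence held it. Across all 32851 upstream sequences of this length 1.86% held at least 1 match and 0.0274% held at least 2. The full AACCGGTT was in 0.116% of all sequences and in 0 of the 8 of the members. The E-box was in 6 of the 8 member sequences, among them those of Grhl3, Cldn6 and 1 start of Cldn7, and in 17.2% of all. Both motifs were chosen after the sequences and signals had been seen, so these shares are descriptive and do not test enrichment. They were searched on both strands, and in these sequences they did not overlap. A match is a description of letters and does not show that a factor binds there.

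Krt8 and Krt18, the filament pair of simple epithelia, had nearly the same level in both genotypes. Krt8 gave 2999.7, 3077 and 3372 in wild-type embryos 1, 2 and 3, and 3982, 2961 and 3008 in heterozygous embryos 1, 2 and 3. Krt18 gave 1732, 1677 and 1882 in the wild types and 2223, 1499 and 1614 in the heterozygotes. For both genes heterozygous embryo 1 was the highest of the 6 and heterozygous embryo 2 the lowest, so the heterozygotes spanned the whole wild-type range. The log2 differences between genotypes were 0.06 for Krt8 (SE 0.11) and -0.01 for Krt18 (SE 0.13), with limma adjusted p of 0.932 and 0.994. The sign for Krt18 turned with the setting, as given under the processing below, and the 2 other probe sets of Krt8 differed by 0.01 and -0.01.

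Krt19, the small type I keratin, was the sole member whose genotypes did not overlap. It gave 319, 337 and 323 in wild-type embryos 1, 2 and 3 and 377, 385 and 339.9 in heterozygous embryos 1, 2 and 3. Heterozygous embryo 3 lay just above wild-type embryo 2. The log2 difference of 0.17 (SE 0.10) did not pass (limma adjusted p = 0.824). Separation of this kind was common on these arrays, being found in 12.2% of all tested probe sets, against 1 of the 16 tested member probe sets (6.25%).

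Dsp encodes desmoplakin, which ties keratin filaments to the desmosome. Its brightest probe set gave 1271, 1087 and 1092 in wild-type embryos 1, 2 and 3 and 1220, 1548 and 1403 in heterozygous embryos 1, 2 and 3. Heterozygous embryos 2 and 3 lay above all wild types, and heterozygous embryo 1 lay below wild-type embryo 1. The means were 1150 ± 105 and 1390 ± 164 (SD, n = 3 per genotype), a 1.21-fold difference with a 95% interval of 1.03 to 1.41. The second probe set of Dsp differed by 1.18-fold, and neither passed over all probe sets (limma adjusted p = 0.774 and 0.782). The dimmest probe set of the gene, at 2.93 to 11.5, was at the background level and was not tested.

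Cdh1, the gene of E-cadherin, the adhesion molecule of the adherens junction, gave 356, 317 and 402 in wild-type embryos 1, 2 and 3. In heterozygous embryos 1, 2 and 3 it gave 479, 423 and 368. Heterozygous embryos 1 and 2 lay above all wild types and heterozygous embryo 3 within their range. The log2 difference was 0.24 (SE 0.13, limma adjusted p = 0.819).

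The claudin genes encode the strand proteins of the tight junction. Cldn7 gave 165, 176 and 206 in wild-type embryos 1, 2 and 3 and 280.5, 199.5 and 234 in heterozygous embryos 1, 2 and 3. Only wild-type embryo 3 reached into the range of the heterozygotes. Its means of 182 ± 21.5 and 238 ± 40.6 (SD, n = 3 per genotype) gave the widest positive difference of the 10 genes on their brightest probe sets, 1.29-fold with a 95% interval of 1.03 to 1.63 (limma adjusted p = 0.781). Cldn6 gave 769.6, 688 and 807 in the wild types and 1022, 825 and 769.1 in the heterozygotes, with heterozygous embryo 3 inside the wild-type range. Its log2 difference was 0.20 (SE 0.11, limma adjusted p = 0.824). Cldn9, which lies next to Cldn6 in the RefSeq gene table of GRCm38.p6, differed by -0.08 (limma adjusted p = 0.928).

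Epcam encodes an epithelial adhesion molecule that binds Cldn7 protein. Its brightest probe set gave 582, 755 and 669 in wild-type embryos 1, 2 and 3 and 655, 722 and 579 in heterozygous embryos 1, 2 and 3, and the genotypes overlapped fully. The log2 difference was -0.03 (SE 0.12, limma adjusted p = 0.970). The second probe set of the gene differed by 0.98 with an SE of 0.55 (adjusted p = 0.824). That value followed from wild-type embryo 2, at 24.1, where the other 5 embryos lay between 101 and 189, and the brighter probe set was highest in the same embryo. The probe sets of Epcam therefore disagreed about this embryo.

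The grainyhead factor genes encode transcription factors of the surface ectoderm, and their brightest probe sets were above the background level in every embryo. Grhl2 gave 109.6, 73.5 and 70.8 in wild-type embryos 1, 2 and 3 and 101, 80.7 and 86.6 in heterozygous embryos 1, 2 and 3. Wild-type embryo 1 was the highest and the other wild types the lowest. Grhl3 gave 54.9, 59.9 and 75.3 in the wild types and 85.8, 59.2 and 64.2 in the heterozygotes, with heterozygous embryo 1 the highest. The log2 differences were 0.10 (SE 0.20) and 0.13 (SE 0.20), with limma adjusted p of 0.942 and 0.926. The remaining 3 probe sets of Grhl2 lay at 1.65 to 37.8, close to background, and of these 2 were tested, with differences of -0.41 and -0.12.

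**Figure D1:**
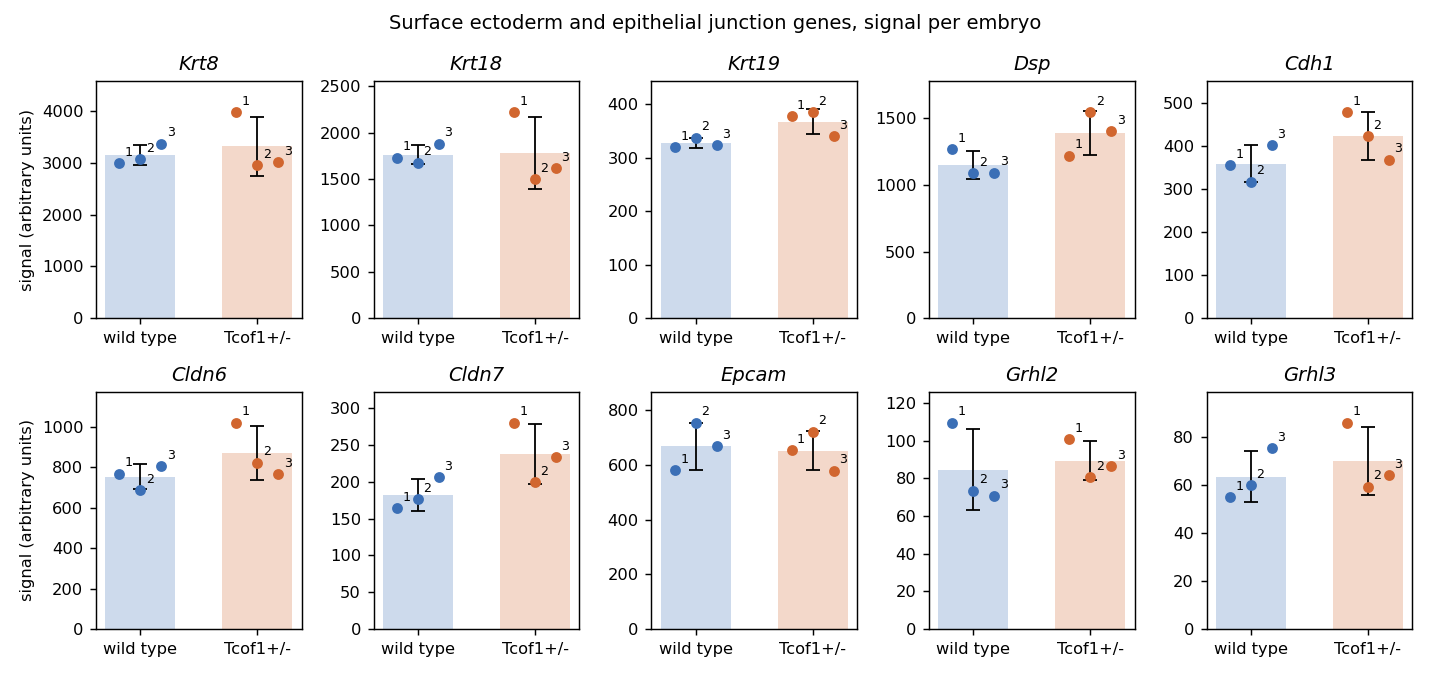
Signal in arbitrary units of each of the 10 genes on its brightest probe set, with 1 point per embryo (numbered 1 to 3 within each genotype), bars at the mean of 3 embryos and error bars of 1 SD. Heterozygous embryo 1 is the highest of all embryos for 6 of the 10 genes, and the genotypes separate for Krt19 alone.

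No member passed the test in either direction. Of their 18 probe sets 16 were bright enough to be tested, and 0 of these had a limma adjusted p under 0.05, where 22 of 27022 probe sets over the whole array, 0.0814%, did. The lowest adjusted p was 0.774. At an unadjusted p under 0.05 there were 3 of the 16 tested member probe sets, that of Cldn7 and the brighter 2 of Dsp, against 6.22% of all tested probe sets. Over the 16 member probe sets 11 differences were positive and 5 negative. On the brightest probe set of each gene 8 differences were positive and 2 negative, with a median of 0.15 on the log2 scale. Over all tested probe sets the median was 0.0047 and 50.9% were positive. The 95% intervals of the 10 genes on these brightest probe sets, not adjusted for their number, ran from 0.789-fold at the lowest to 1.63-fold at the highest. None of these included a 2-fold change in either direction and 1, that of Cldn7, extended past 1.5-fold. Such a change was included in the intervals of the second Epcam probe set (0.847 to 4.63-fold) and the dim tested Grhl2 probe sets (0.281 to 2.01-fold and 0.442 to 1.91-fold).

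**Figure D2:**
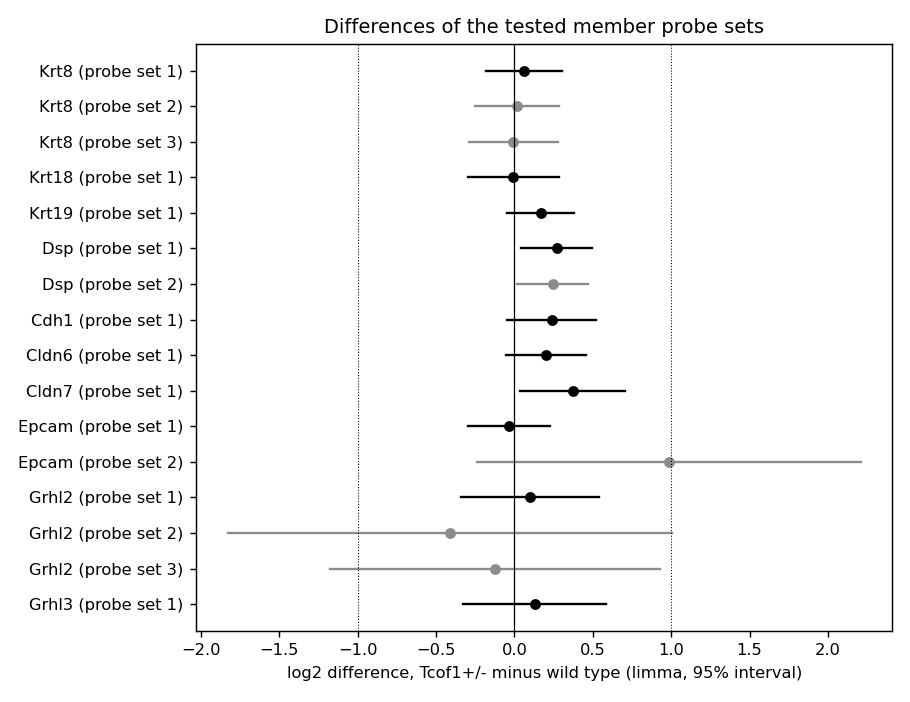
Log2 difference between heterozygous and wild-type embryos for the 16 tested probe sets of the 10 genes, numbered from the brightest, with 95% intervals from limma; black marks the brightest probe set of a gene and the dotted lines mark 2-fold. The intervals of the brightest probe sets all lie within the dotted lines, and those of the second Epcam and the dim Grhl2 probe sets are far wider.

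The median over the members differed between the scan days and between the heterozygous embryos. Heterozygous embryo 1 was itself scanned on the first day, so scan day and embryo could not be told apart. Among the 4 arrays of the first day 10 of 10 genes were higher in heterozygotes, with a median of 0.22. Between the 2 arrays of the second day, 1 embryo per genotype, 4 of 10 were higher and the median was -0.10. Relative to the wild-type mean the median over the genes was 0.34, 0.12 and 0.04 in heterozygous embryos 1, 2 and 3, with 9, 6 and 7 genes above it. Without heterozygous embryo 1 the median difference was 0.05, and without any other single embryo it was 0.11 to 0.20. The fluidics module could not be told apart from genotype, since no module held both.

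Markers of yolk sac endoderm, the tissue that shares most of these genes, differed between the embryos far more than the members did. Afp, alpha-fetoprotein, gave 321, 2050 and 1371 in wild-type embryos 1, 2 and 3 and 2770, 113 and 1792 in heterozygous embryos 1, 2 and 3. Ttr, the carrier of thyroxine and retinol-binding protein, ranged from 496 to 5860 and Rbp4, the retinol-binding protein gene, from 166 to 2192, in both cases from heterozygous embryo 2 to heterozygous embryo 1. The summed signal of the 25 markers on the array was 2952 to 13135 in wild types and 1956 to 21373 in heterozygotes, a range of 10.9-fold over the 6 embryos, whereas that of the 10 members was 8247 to 8900 and 8467 to 10426, a range of 1.26-fold. Heterozygous embryo 1 was highest for 23 of the 25 markers and heterozygous embryo 2 lowest for 19. No marker was listed at 0 in every embryo, but 8 in wild-type embryo 1 and 7 in heterozygous embryo 2 lay below the background level of their array, among them the lipoprotein genes Apoa4 and Apoc2, the fibrinogen genes Fga and Fgg and the endoderm factor gene Hnf4a in both. In the other 4 embryos 0 did.

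Heterozygous embryo 1, with the most yolk sac endoderm signal, was also the highest for 6 of the 10 members: Krt8, Krt18, Cdh1, Cldn6, Cldn7 and Grhl3. Of these, Cldn7 and Grhl3 are among the members for which no yolk sac expression is stated here. At the other end, heterozygous embryo 2 was the lowest for Krt8 and Krt18 but the highest for Krt19 and Dsp. Wild-type embryo 1, the other embryo with little yolk sac endoderm signal, was the lowest for Krt19, Cldn7 and Grhl3 and the highest for Grhl2. With wild-type embryo 1 and heterozygous embryo 2 both left out, a choice made after the values were seen, the median difference over the members was 0.19 and 0 member probe sets passed, with 2 at an unadjusted p under 0.05. As a group the 25 markers did not separate the genotypes: 13 were higher and 12 lower in heterozygotes, with a median of 0.04 and 0 passing (limma, lowest adjusted p = 0.904, 0 at an unadjusted p under 0.05).

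**Figure D3:**
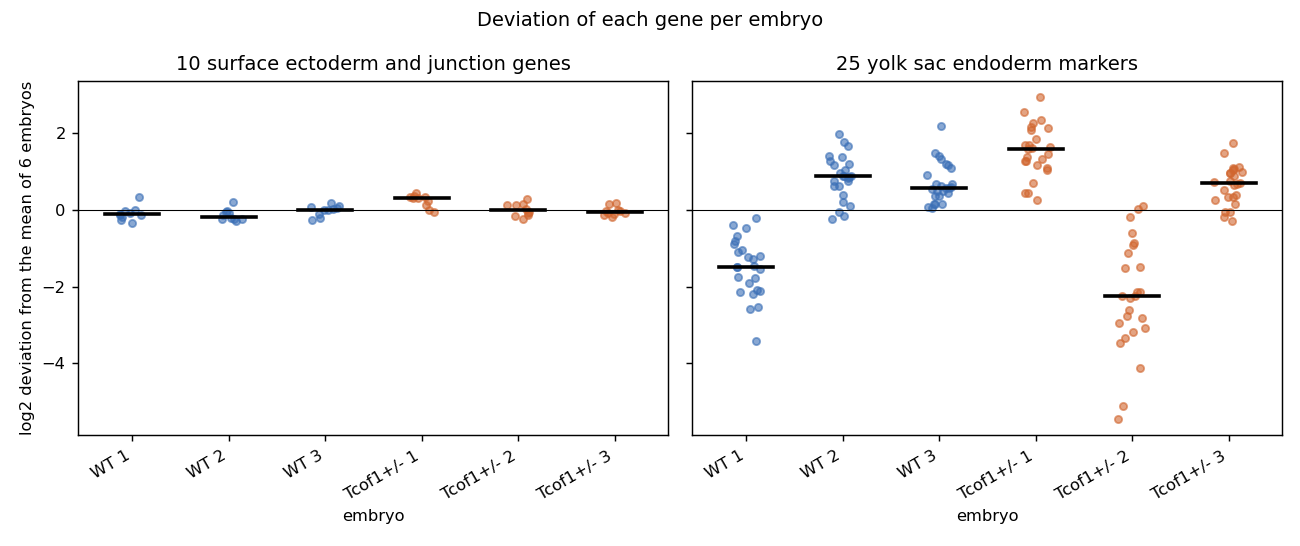
Log2 deviation of each gene from its own mean over the 6 embryos, for the 10 surface ectoderm and junction genes and for 25 yolk sac endoderm markers, 1 point per gene, with black lines at the median of an embryo. The medians of the members stay between -0.17 and 0.31, while those of the yolk sac markers run from -2.24 in heterozygous embryo 2 to 1.61 in heterozygous embryo 1.

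Heterozygous embryo 1 stood apart for red cell genes as well, being the lowest for 8 of 8 tested primitive erythroid genes. Hbb-y, an embryonic beta globin, was at 76.7 in this embryo and at 2028 to 5484 in the others. Of these 8 genes 0 were positive in heterozygotes, with a median log2 difference of -1.51, and 0 passed in limma (lowest adjusted p = 0.793, 2 at an unadjusted p under 0.05). Their median relative to the wild-type mean was -3.50, -0.95 and 0.14 in heterozygous embryos 1, 2 and 3, and the median difference came to -2.55 within the day 1 scans and 0.55 within those of day 2. Gut endoderm markers, by contrast, moved within a range close to that of the members: Foxa1, an endoderm factor gene, ranged from 424 to 536 and Cdx2, a factor gene of hindgut and tail, from 303 to 474. Their summed signal was 2377 to 2607 in wild types and 2721 to 2964 in heterozygotes, without overlap, with 6 of 10 tested genes higher, a median of 0.16 and 0 passing in limma (0 at an unadjusted p under 0.05). Taken singly, 0 of these 10 genes separated the genotypes, against 12.2% of all tested probe sets, and the median over them came to 0.07 within the day 1 scans and -0.01 within those of day 2. The trophoblast markers had 8 of 12 genes on the array, of which 4 were tested and 0 passed (0 at an unadjusted p under 0.05). Their brightest, Tfap2c, Plac1 and Hand1, are not limited to trophoblast, and the giant cell and spongiotrophoblast genes Ctsq and Tpbpa did not rise above 11.9. Of 4 notochord genes on the array 0 passed. Nog, the gene of the Bmp antagonist noggin, was the 1 with an unadjusted p under 0.05 (limma adjusted p = 0.772). It was at 22.1 to 25.3 in wild types and 2.04 to 14.6 in heterozygotes, whose arrays had background levels of 8.55 to 11.3. The heterozygote values of Nog were therefore close to or below background. The part of any of these tissues in the member values was not tested.

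Other genes of epithelial junctions, polarity and identity were read from a list of 76, of which 73 were on the array and 62 were tested. Of these, 1 desmosomal gene, Perp, was called higher and 0 were called lower, where 0.0814% of all tested probe sets were called in either direction. Of the 62, 35 differences were positive and 27 negative, with a median of 0.06. At an unadjusted p under 0.05 in limma there were 7 of the 62, or 11.3%, against 6.22% of all tested probe sets. Groups did not overlap for 7 genes, all higher in heterozygotes, which is 11.3% of the 62, near the 12.2% of all tested probe sets in either direction.

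Perp, a tetraspan membrane protein of desmosomes and also a p53 target, gave 62.5, 76.7 and 63.4 in wild-type embryos 1, 2 and 3 and 164, 197 and 140.0 in heterozygous embryos 1, 2 and 3. The lowest heterozygote lay well above the highest wild type. The log2 difference was 1.28 (SE 0.17, limma adjusted p = 0.0321), with 1.35 among arrays of the first scan day and 1.12 between those of the second. The call was lost in 10 of 19 alternatives, with adjusted p from 0.0504 to 0.402 there, while the log2 difference was 1.10 to 1.40 over all 19. Among these were scan day as a block and the removal of any embryo other than heterozygous embryo 3. None of the other desmosome genes passed: Evpl, the envoplakin gene, had the next smallest p and differed by -0.69 (adjusted p = 0.824) at signals of 8.14 to 27.5. The median over the 8 tested desmosome genes was 0.13.

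In the adherens junction group 4 of 8 genes were positive and 0 passed. Ctnnb1, the beta-catenin gene, did not overlap between genotypes, at 5594 to 6232 in wild types and 6328 to 6676 in heterozygotes, for a log2 difference of only 0.11 (limma adjusted p = 0.824). Ctnnd1, the p120 catenin gene, differed by -0.22 (adjusted p = 0.838). In the tight junction group 8 of 14 tested genes were positive and 0 passed. Cldn10 (-0.85, limma adjusted p = 0.782) and Cldn3 (-0.26, adjusted p = 0.875), both claudin genes, had the smallest p. The difference of Cldn3 was -0.47 within the day 1 scans and 0.16 within those of day 2. Its dimmer tested probe sets differed by -0.08 and 0.17.

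Of the 7 polarity genes 3 were positive and 0 passed, led by Pals1 (-0.20, limma adjusted p = 0.824) and Patj (0.30, adjusted p = 0.853), which encode partners in the Crumbs complex. The dimmer probe sets of Pals1 had the opposite sign, at 0.10 and 0.11. Those of Patj that were tested differed by 0.06 and 0.61. Of 5 tested other keratins 2 were positive and 0 passed, led by Krt5 (0.36, adjusted p = 0.860), the type II keratin of basal epidermis, and Krt23 (0.57, adjusted p = 0.878). Among 11 tested transcription and splicing factors 6 were positive and 0 passed. Tfap2a, an AP-2 factor gene of surface ectoderm and neural crest, had the smallest p of the group. It gave 202, 365 and 281 in wild-type embryos 1, 2 and 3 and 169, 207 and 180.0 in heterozygous embryos 1, 2 and 3. Its log2 difference was -0.57 (SE 0.19, adjusted p = 0.730), opposite in sign to most of the members. Klf5, a Krüppel-like factor gene of epithelia, differed by 0.51 on its brightest probe set (limma adjusted p = 0.781), without overlap. That difference was 0.70 within the day 1 scans and 0.12 within those of day 2. A dimmer probe set of Klf5, at 7.47 to 20.4, differed by -0.54 with overlap (limma adjusted p = 0.859).

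In the group of membrane proteases, their inhibitors and trafficking proteins 7 of 9 tested genes were positive, with a median of 0.13, and 0 passed. Heterozygous embryo 1 was highest of the 6 embryos for 6 of the 9 genes. Relative to the wild-type mean, the median over the group was 0.38 in this embryo, with 9 of 9 genes above that mean, and 0.05 and 0.04 in heterozygous embryos 2 and 3. The median difference was 0.23 among arrays of the first scan day and -0.02 between those of the second. St14, the gene of the membrane protease matriptase, was at 70.1 ± 10.5 and 99.8 ± 16.5 (SD, n = 3 per genotype; log2 0.50, limma adjusted p = 0.771). Ap1m2, the gene of an epithelial sorting adaptor subunit, was at 128 ± 12.9 and 161 ± 7.77 (log2 0.32, adjusted p = 0.781). The genotypes did not overlap for either, although the log2 difference of St14 came to 0.72 within the day 1 scans and 0.04 within those of day 2. Neither did they on the brightest probe set of Spint2, an inhibitor of such proteases named here after its values were seen. That probe set was at 474 to 494 in wild types and 522 to 633 in heterozygotes (log2 0.23, limma adjusted p = 0.781). Its log2 difference was 0.31 within the day 1 scans and 0.08 within those of day 2. On the second probe set of Spint2 the genotypes overlapped, at 231 to 397 and 269 to 424 (log2 0.19, limma adjusted p = 0.901). Of the 9 genes 33.3% did not overlap, against 12.2% of all tested probe sets.

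**Figure D4:**
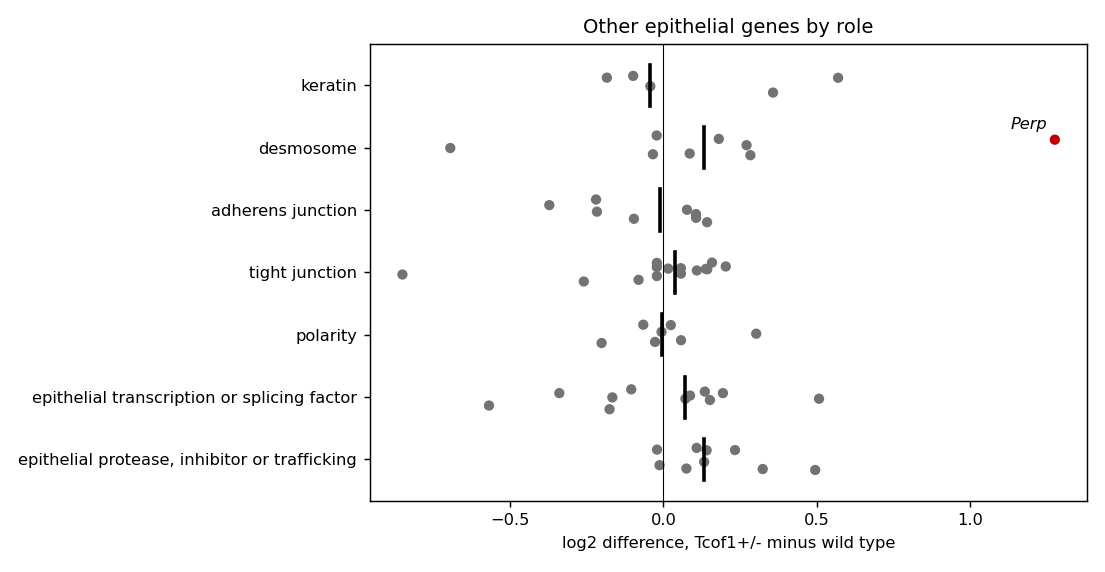
Log2 difference between heterozygous and wild-type embryos for 62 tested epithelial genes outside the 10 members, 1 point per gene on its brightest probe set, by role, with black lines at the median of each role and red for a limma adjusted p under 0.05. Perp, at 1.28, is the red point; the medians of the 7 roles lie between -0.04 and 0.13.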

How the data were processed

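Total RNA (100 ng) of each embryo was amplified in 2 cycles and 20 µg of biotin-labelled cRNA was hybridised to its own array, per the labels' protocols. The deposited values are linear signal intensities, for which the submitters' processing notes name the Affymetrix software GCOS; the sources used here do not give its version or algorithm. In the values, each array has a 2% trimmed mean of 150, so that overall brightness was equalised by the authors. Scan day and fluidics module came from the deposited instrument records, which hold no expression values and are other entries, per the file headers.

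A pseudocount of 1.87, the 10th percentile of the non-control values, was added before the log2 transformation. After removal of the dimmest 40% of probe sets by mean log2 value over all 6 arrays (a signal near 13.2), the remaining 27022 were tested with limma 3.58.1 (lmFit, eBayes with an intensity trend, R 4.3.3), two-sided, with genotype as the sole term and Benjamini-Hochberg adjustment over all of them. Fold changes are on this scale and understate those of dim genes. A gene is represented by its brightest probe set unless stated. The fit was tested on simulated data. The members and lists were chosen with earlier results of these data known, and the 2 sequence motifs after the sequences and signals had been seen. The genes named were all members, Tcof1, other epithelial genes that passed or had the 2 smallest p of their role, and the 3 brightest genes of each marker list, not all of which are described. Cldn9, Nog, Spint2, Ctsq, Tpbpa, Zeb1, Zeb2, Snai1 and the yolk sac genes below background were named after their values were seen. Same-numbered embryos of the 2 genotypes did not deviate together (correlations of -0.11 to -0.02), so the numbers were not taken as pairs. Marker genes without a matched symbol were not analysed here. Alternatives were the pseudocount, the scaling, the filter, the variance prior, array weights, blocks for replicate number and scan day, each scan day alone, each embryo left out, the mean of a gene's probe sets and, added after seeing the data, 2 embryos left out together. Figures were drawn with matplotlib 3.10.9.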

Additional observations from a re-analysis of the deposited data

How the results depend on the processing

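No member probe set passed in limma under any alternative that gave a test, with a lowest adjusted p of 0.583 among them and 0 to 5 at an unadjusted p under 0.05; the yolk sac list also stayed at 0 calls. The median difference over the members stayed positive, at 0.05 to 0.20 when 1 embryo was left out, except on the second scan day alone (-0.10). Small differences changed sign. Leaving out 1 embryo gave -0.18 to 0.11 for Krt18, -0.076 to 0.14 for Krt8, -0.13 to 0.057 for Epcam, -0.012 to 0.30 for Grhl2 and -0.027 to 0.26 for Grhl3. Krt18 was at 0.0025 with array weights, 0.10 on the first scan day alone and 0.093 without wild-type embryo 1 and heterozygous embryo 2 together. Epcam was at 0.053 on the first scan day alone, and the mean of all probe sets gave 0.48 for Epcam and -0.28 for Grhl2. Over the whole array the 22 calls became 14 with scan day as a block, 12 on the first scan day alone, 11 with those 2 embryos left out, 8 to 20 with 1 embryo left out (8 when wild type 1 was dropped, 11 for wild type 2 or 3, 12 for heterozygote 2) and 0 without the intensity trend (1571 at an unadjusted p under 0.05). With the replicate block they became 10, and the 1 call among other epithelial genes, Perp, became 0, although the numbers did not pair the embryos. That call also became 0 with scan day as a block, on the first scan day alone, without the intensity trend and with the 2 embryos left out, and was 0 to 1 with 1 embryo left out. The causes were not tested. Dim probe sets near background limit what can be said of Grhl2 beyond its brightest.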

Other observations

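Mesenchymal genes, the counterpart of the epithelial set, gave no call between the genotypes. Of 18 tested genes 8 were positive and 10 negative in heterozygotes, with a median log2 difference of -0.01, and 0 passed in limma (lowest adjusted p = 0.649, 2 at an unadjusted p under 0.05). Vim, the gene of the mesenchymal filament protein vimentin, was at 1661, 1597 and 1420 in wild-type embryos 1, 2 and 3 and at 1780.1, 1926 and 1991 in heterozygous embryos 1, 2 and 3, without overlap (log2 0.29). Such separation was found for 11.1% of the 18 genes, 1 higher and 1 lower, near the 12.2% of all tested probe sets. Fn1, the fibronectin gene, differed by 0.08 and Snai2, a repressor gene of the Snail family, by -0.05. The summed signal of the list was 10940 to 12846 in wild types and 11848 to 12261 in heterozygotes. Zeb1 and Zeb2, repressors of E-cadherin named here for that role, differed by 0.03 and -0.17 (adjusted p = 0.971 and 0.883), and Snai1, another such repressor, by -0.19 (adjusted p = 0.905).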
